A study of Mus musculus with 8 samples.

Results

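The levels of 10 genes that encode precursors of cortical neuropeptides were followed in bulk RNA sequencing of the mouse cingulate gyrus, a limbic cortical region. They are the opioid precursors *Penk* and *Pdyn*, the tachykinin precursors *Tac1* and *Tac2*, and *Cck*, *Npy*, *Crh*, *Nts*, *Adcyap1* and *Cartpt*. These 10 genes were chosen as a list of names, with no threshold on a measured value but with earlier results of these data known. All 10 are among the 53379 genes in the deposited table. All 10 also passed the filter on low counts, as did 16914 genes in all. The study compared 4 samples from male wild-type mice (*Mvp*+/+, named WT) with 4 samples from male mice with both copies of the major vault protein gene disrupted (*Mvp*-/-, named Mvp KO), and the labels call the tissue cingulate cortex and the treatment none. The major vault protein is the main building block of the vault, a large ribonucleoprotein particle of the cytoplasm. The allele is a constitutive gene trap in the first intron of *Mvp*, so the gene is disrupted in every cell type, and the single-gene mutants were kept on a C57BL/6 background. The study states that its replicates are biological. The age of these mice is not given in the sources used here.

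Neuropeptides are made as longer precursors that enter the secretory pathway. Convertases cut the precursor at pairs of basic residues, a carboxypeptidase trims the basic residues, and in many peptides an exposed glycine is turned into a C-terminal amide. The finished peptides are stored in dense-core vesicles and act on G protein-coupled receptors. In the cortex, *Npy* and *Tac1* are known from interneurons, *Cck* from interneurons and pyramidal neurons, and *Adcyap1*, which encodes PACAP, from excitatory neurons. Several of these genes are also known to be induced by neuronal activity.

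The precursors differ in how many copies of a peptide they carry. The coding sequences below, read from the principal transcripts of the GRCm38 annotation, show the codons of the peptide core in capitals and the neighboring codons in lower case, and they are shown because these cores identify the families. In *Penk*, a pattern search found 6 Met-enkephalin cores and 1 Leu-enkephalin core among 268 codons, all in exon 2, with 12 pairs of basic residues. In *Pdyn*, it found 3 Leu-enkephalin cores among 248 codons, all in exon 4. A pair of basic codons stands before each core.
*Penk* Met-enkephalin core, copy 3 (chr4:4134217-4134246, minus strand): aagaggTATGGCGGCTTCATGaagaaggat
*Penk* Leu-enkephalin core (chr4:4133932-4133961, minus strand): aagaggTATGGGGGCTTCCTGaagcgcttt
*Pdyn* Leu-enkephalin core, copy 1 (chr2:129688229-129688258, minus strand): aaacgcTATGGCGGCTTTTTGcgcaaatac
*Pdyn* Leu-enkephalin core, copy 2 (chr2:129688121-129688150, minus strand): aaacgcTATGGGGGCTTCCTGcggcgcatt
*Pdyn* Leu-enkephalin core, copy 3 (chr2:129688064-129688093, minus strand): aagcgcTATGGTGGTTTCCTGcggcgtcag

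The tachykinin precursors share a C-terminal core that is followed by a glycine codon and a pair of basic codons, a signal for amidation. *Tac1* carried 2 such cores among 130 codons, one for substance P in exon 3 and one for neurokinin A in exon 6. *Tac2* carried 1 core, for neurokinin B, in exon 5 of a reading frame of 116 codons. *Cck* carried 1 cholecystokinin core in exon 3 of a frame of 115 codons, also followed by glycine and basic codons. *Npy* had 1 glycine codon before a basic pair among 97 codons, *Adcyap1* had 2 among 175, and *Nts* had 1 among 169. *Crh*, with 187 codons, and *Cartpt*, with 116, had 0. The search took only a glycine before a pair of basic codons, so these counts do not show which peptides are amidated.
*Tac1* substance P core (chr6:7556744-7556773, plus strand): cagcagTTCTTTGGATTAATGggcaagcgg
*Tac1* neurokinin A core (chr6:7559110-7559139, plus strand): gattccTTTGTTGGACTAATGggcaaaaga
*Tac2* neurokinin B core (chr10:127729125-127729154, plus strand): gacttcTTTGTGGGACTTATGggcaagagg
*Cck* cholecystokinin core (chr9:121490098-121490124, minus strand): atgggcTGGATGGATTTTggccggcgc

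The total count per sample was between 28456504 and 42854368 and did not differ detectably between the genotypes (exact permutation test over the 70 arrangements, two-sided, p = 0.686, n = 4 per genotype). All levels are CPM, read counts normalised to the size of the library and scaled by the trimmed mean of M values (TMM). *Mvp* was at 6.81, 7.12, 7.89 and 5.49 CPM in WT replicates 1 to 4 and at 1.45, 1.44, 2.13 and 1.51 CPM in Mvp KO replicates 1 to 4, so the groups did not overlap. The Mvp KO libraries still held 43 to 81 *Mvp* counts each, and the origin of these counts was not tested. Of the exonic bases of *Mvp*, 4.54% are shared on the same strand with *Pagr1b*. The paper describes the loss of *Mvp* in its transcriptome data as complete. The log2 fold change, Mvp KO minus WT, was -2.06 ± 0.186 (SE, n = 4 per genotype, adjusted p = 0.0162), and the exact permutation test gave p = 0.0286, which is as small as this design can give. The adjusted p lay between 0.0918 and 0.147 when any 1 of WT replicates 1, 2 and 3 or of Mvp KO replicates 1, 2 and 4 was left out, and was 0.00446 without WT replicate 4. WT replicate 4 stood apart from the other libraries. In WT replicate 4, 1548 of the 16914 genes (9.15%) differed at least 2-fold from the median over the 7 remaining libraries, whereas 0.514 to 2.57% of genes did so in each of those. Fold changes that moved by over 1.5 times when WT replicate 4 was left out are therefore given with and without it. Markers of cortical neurons were set beside those of other regions. Of 8 markers of cortical excitatory neurons all were tested, with a summed level between 1926 and 3498 CPM. The 6 markers of hypothalamic peptidergic neurons summed to between 0.730 and 3.12 CPM and 4 of the choroid plexus to between 4.52 and 8.53 CPM. Striatal projection neuron markers lay in between, with sums from 102 to 188 CPM, as did those of claustrum and endopiriform neurons, with 68.9 to 118 CPM. These sums are not scaled to gene length and cover lists of different sizes, so their order depends on the genes listed.

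The 10 precursors covered a wide range of levels. To compare genes, CPM were divided by the length of all annotated exons of the gene in kilobases. *Cck* stood highest with 257 ± 78.3 CPM per kb (SD, n = 8), followed by *Npy* with 105 ± 89.2. *Penk* (18.5 ± 3.85), *Adcyap1* (17.2 ± 12) and *Pdyn* (12.8 ± 3.29) formed the next group. *Tac2* was at 6.59 ± 2.47, *Tac1* at 4.82 ± 0.385 and *Crh* at 4.04 ± 0.886 CPM per kb. *Cartpt* was at 1.41 ± 0.479 and *Nts* was lowest with 0.676 ± 0.242 CPM per kb, so that the highest mean was 381 times the lowest. With the longest transcript as the length, this ratio was 622.

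Most neighbors in this order did not differ beyond their spread. The ranges over the 8 samples overlapped in 7 of the 9 neighboring pairs, all except *Npy* over *Penk* and *Crh* over *Cartpt*. Without WT replicate 4 they overlapped in 4 of the 9 pairs, which were *Penk* with *Adcyap1*, *Adcyap1* with *Pdyn*, *Tac2* with *Tac1*, and *Tac1* with *Crh*. The lowest level of *Cck* in those 7 samples was then 207 CPM per kb and the highest of *Npy* was 95.4. For *Cartpt* over *Nts* the lowest and the highest values without that sample were 1.35 and 1.12 CPM per kb.

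**Figure D1:**
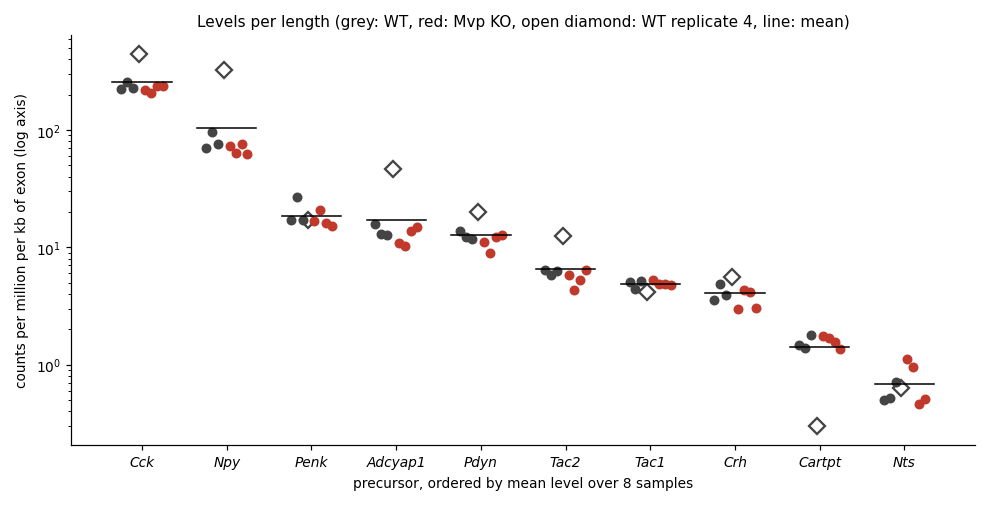
Level of each precursor in CPM per kb of exon on a log axis, with the genes ordered by their mean over the 8 samples. Each point is 1 sample (grey for WT, red for Mvp KO, open diamond for WT replicate 4) and each line is the mean. The means run from 257 for *Cck* to 0.676 for *Nts*, and the open diamond lies above the other points for *Cck*, *Npy*, *Adcyap1*, *Pdyn*, *Tac2* and *Crh* and below them for *Cartpt* and *Tac1*.

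The comparison of the genotypes asked whether loss of *Mvp* changes the transcriptome of the cingulate gyrus. For the precursors, edgeR's quasi-likelihood test called 0 of 10 at an adjusted p under 0.05, where 1 of all 16914 genes was called, *Mvp* itself (0.00591%). For 0 of the 10 did all samples of 1 genotype lie above all samples of the other, against 1.52% of all genes. By sign alone, 7 of the 10 fitted fold changes were lower in Mvp KO and 3 were higher, with a median log2 fold change of -0.34 against -0.00 over all genes tested. Without WT replicate 4 the median of the 10 was -0.16. At an unadjusted p under 0.05, 1 precursor (*Npy*) was lower and 0 were higher in Mvp KO, where 0.863% of all genes were lower and 0.698% higher. DESeq2's Wald test and limma voom also called 0 of 10 after adjustment. At an unadjusted p under 0.05, DESeq2 counted 1 (*Tac2*) and voom counted 0, and the share of all genes was not computed for either. The 95% intervals lay within a 2-fold change in either direction for 5 of the 10 precursors, and for 9 of the 10 without WT replicate 4.

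**Figure D2:**
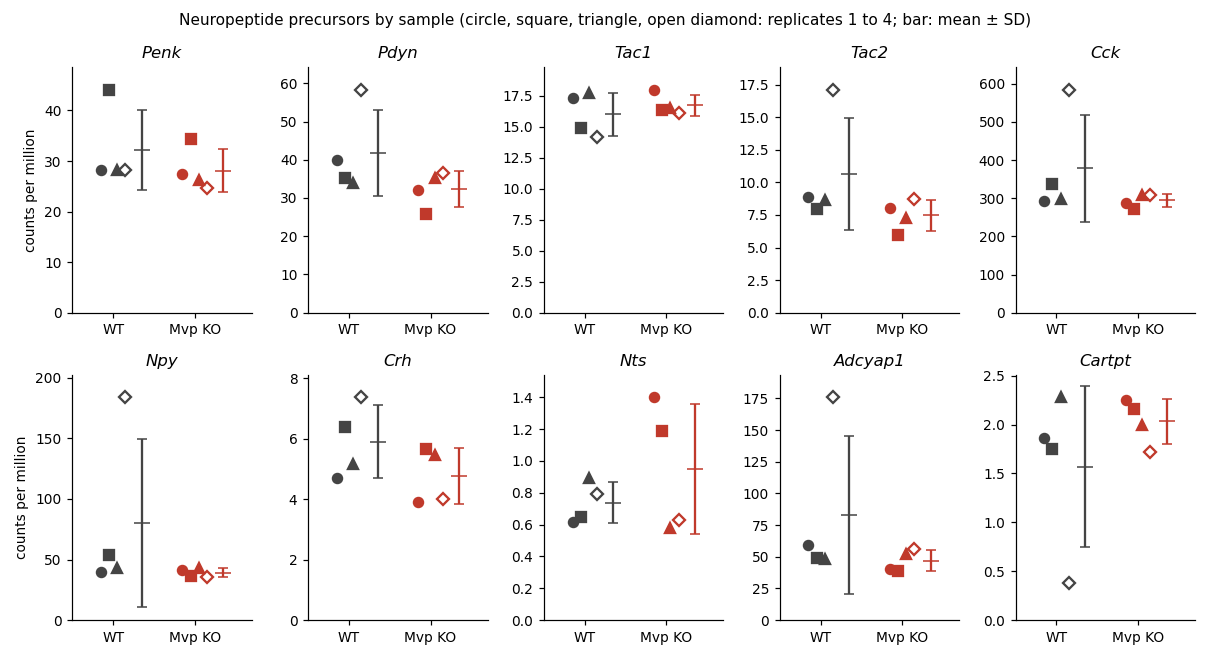
CPM of each precursor by sample, with a linear axis from 0 in each panel. Symbols mark replicates 1 to 4 of each genotype (grey WT, red Mvp KO), and bars are the mean ± SD of 4 samples. The WT and Mvp KO points overlap for all 10 genes, and WT replicate 4 (open grey diamond) lies far above the other 7 samples for *Npy* and *Adcyap1* and below them for *Cartpt*.

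Neither opioid precursor differed detectably between the genotypes. *Penk*, the precursor of the enkephalins, was at 28.2, 44.1, 28.2 and 28.2 CPM in WT and at 27.4, 34.3, 26.2 and 24.6 CPM in Mvp KO. The highest sample was replicate 2 in both genotypes, and the groups overlapped. The log2 fold change of *Penk* was -0.20 ± 0.168 (SE, n = 4 per genotype, 95% interval -0.57 to 0.18, adjusted p = 0.969), and without WT replicate 2 it was -0.01 ± 0.118. Of the exonic bases of *Penk*, 14.3% lie opposite *A830012C17Rik*, and since the strand setting of the counting is not given in the sources used here, reads of the 2 genes cannot be told apart there if they were counted without strand. *Pdyn*, the precursor of the dynorphins, was at 39.9, 35.2, 33.9 and 58.3 CPM in WT and at 32.0, 25.7, 35.1 and 36.5 CPM in Mvp KO. WT replicate 4 was the highest of the 8 samples and Mvp KO replicate 2 the lowest. For *Pdyn* the log2 fold change was -0.37 ± 0.181 (95% interval -0.78 to 0.04, adjusted p = 0.969), and -0.17 ± 0.119 without WT replicate 4.

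The receptors of these peptides were measured in the same libraries. *Oprk1*, which encodes the kappa opioid receptor of the dynorphins, had the highest fitted fold change of the 18 receptor and binding protein genes tested, 0.77 ± 0.597 on the log2 scale. It was at 0.635 CPM in WT replicate 4 and between 8.11 and 15.7 CPM in the other 7 samples, and without that sample the log2 fold change was 0.39 ± 0.173. *Oprd1*, the delta opioid receptor gene, was between 14.5 and 33.0 CPM and was highest in WT replicate 4 (log2 fold change -0.43 ± 0.201, and -0.21 ± 0.144 without that sample). *Oprm1*, the mu opioid receptor gene, was between 0.0748 and 0.210 CPM and did not pass the filter.

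The tachykinin precursors differed in their spread. *Tac1*, which encodes substance P and neurokinin A, was at 17.3, 14.9, 17.7 and 14.2 CPM in WT and at 18.0, 16.4, 16.5 and 16.1 CPM in Mvp KO. With all 8 samples this was the narrowest spread of the 10 genes, and the log2 fold change of 0.06 ± 0.0969 had a 95% interval from -0.15 to 0.28 (adjusted p = 0.969). It was 0.02 ± 0.0860 without WT replicate 4. *Tac2*, which encodes neurokinin B, was at 8.85, 7.97, 8.67 and 17.1 CPM in WT and at 8.03, 5.96, 7.23 and 8.74 CPM in Mvp KO. The level of WT replicate 4 was far above the other 7, which lay between 5.96 and 8.85 CPM. Between the genotypes, *Tac2* differed by -0.51 ± 0.251 on the log2 scale (95% interval -1.07 to 0.06, adjusted p = 0.969), and -0.18 ± 0.137 without WT replicate 4. Among the receptors, *Tacr1*, which binds substance P, was at 4.76 CPM in WT replicate 4 and between 1.40 and 3.19 CPM elsewhere. *Tacr3*, which binds neurokinin B, was between 0.276 and 0.835 CPM.

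*Cck* and *Npy* had the highest levels per length of the 10 precursors, and both were highest in WT replicate 4. *Cck* was at 292, 338, 297 and 584 CPM in WT and at 288, 271, 309 and 308 CPM in Mvp KO. Apart from WT replicate 4 the samples of the 2 genotypes covered overlapping ranges. The log2 fold change of *Cck* was -0.36 ± 0.208 (95% interval -0.83 to 0.11, adjusted p = 0.969), and without that sample it was -0.07 ± 0.0765 with an interval from -0.24 to 0.10. *Npy*, which encodes neuropeptide Y, was at 40.0, 54.0, 43.0 and 184 CPM in WT and at 41.1, 36.3, 43.4 and 35.4 CPM in Mvp KO. The mean of *Npy* was 80.2 ± 69.3 CPM in WT (SD, n = 4) and 39.1 ± 3.85 CPM in Mvp KO, and 45.7 ± 7.35 CPM in the 3 other WT samples. Its log2 fold change of -1.04 ± 0.459 was the largest of the 10 in size, with a 95% interval from -2.07 to -0.00, an unadjusted p of 0.0499 and an adjusted p of 0.969. Without WT replicate 4 it was -0.22 ± 0.114, with an unadjusted p of 0.0801.

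Their receptors did not move together in WT replicate 4. *Cckbr*, the gene of the main cholecystokinin receptor of the brain, was at 111 CPM there and between 78.5 and 98.1 CPM elsewhere, and *Cckar* had at most 3 counts in every sample. *Npy1r*, the Y1 receptor gene, was at 13.8 CPM there and between 35.4 and 46.4 CPM elsewhere, and *Npy2r* was at 2.51 CPM against 3.82 to 10.8. *Npy5r* was at 5.56 CPM against 6.34 to 9.90. Between the genotypes, the log2 fold changes of these 4 tested genes ran from -0.07 for *Cckbr* to 0.28 for *Npy2r*, and without WT replicate 4 from -0.07 for *Npy1r* to 0.04 for *Npy2r*.

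*Crh* and *Adcyap1* encode peptides of the stress response. *Crh*, which encodes corticotropin-releasing hormone, was at 4.69, 6.38, 5.16 and 7.37 CPM in WT and at 3.92, 5.66, 5.47 and 4.0 CPM in Mvp KO. The groups overlapped, and the log2 fold change was -0.31 ± 0.193 (95% interval -0.74 to 0.13, adjusted p = 0.969) with all samples and -0.18 ± 0.180 without WT replicate 4. *Adcyap1* was at 59.4, 48.7, 48.0 and 176 CPM in WT and at 40.7, 39.0, 52.2 and 56.0 CPM in Mvp KO. Its mean was 83.1 ± 62.3 CPM in WT (SD, n = 4) and 47.0 ± 8.42 CPM in Mvp KO, and 52.0 ± 6.40 CPM in the other 3 WT samples. *Adcyap1* differed by -0.82 ± 0.408 on the log2 scale (95% interval -1.74 to 0.10, adjusted p = 0.969), and -0.15 ± 0.141 without WT replicate 4.

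The partners of these peptides followed different courses in WT replicate 4. *Crhbp*, whose product binds and sequesters corticotropin-releasing hormone, had the lowest fitted fold change of the receptor and binding protein genes, -0.89 ± 0.388 on the log2 scale. It was at 83.8 CPM in WT replicate 4 and between 21.2 and 26.9 CPM in the other 7 samples, and the log2 fold change without that sample was -0.23 ± 0.0795. *Crhr1*, the main cortical receptor gene of *Crh*, was at 13.3 CPM there and between 26.7 and 33.3 CPM elsewhere. *Adcyap1r1*, the PACAP receptor gene, was at 382 CPM there and between 208 and 260 CPM elsewhere.

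*Nts* and *Cartpt* had the lowest levels per length of the 10. *Nts*, which encodes neurotensin, had between 18 and 56 counts per sample. It was at 0.619, 0.645, 0.893 and 0.794 CPM in WT and at 1.40, 1.19, 0.579 and 0.632 CPM in Mvp KO. Mvp KO replicates 1 and 2 were the highest of the 8 samples and Mvp KO replicate 3 the lowest. The log2 fold change of *Nts* was 0.38 ± 0.322 (95% interval -0.35 to 1.1, adjusted p = 0.969), and 0.13 ± 0.316 without Mvp KO replicate 1. The exact Poisson 95% interval for counting error alone was 1.06 to 1.81 CPM in Mvp KO replicate 1 and 0.374 to 0.998 CPM in Mvp KO replicate 4. The 5 oligodendrocyte markers summed to 5208 and 3529 CPM in the 2 samples with the most *Nts* and to between 1202 and 2548 CPM in the other 6. Of these markers 0 of 5 were called, with a median log2 fold change of 0.67. The hypothalamic peptidergic markers summed to 3.12 CPM in Mvp KO replicate 1 and to 0.749 CPM in Mvp KO replicate 2, against 0.730 to 1.47 CPM elsewhere. The part of either list in the *Nts* levels was not tested. In bulk tissue, fewer cells of a type and less RNA per cell cannot be told apart. Of the receptors, *Ntsr1* was between 5.46 and 17.0 CPM, and *Ntsr2* between 89.8 and 104 CPM.

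*Cartpt*, which encodes the peptide CART, was at 1.86, 1.75, 2.28 and 0.381 CPM in WT and at 2.25, 2.16, 2.00 and 1.72 CPM in Mvp KO. WT replicate 4 was the lowest of the 8 samples, with 12 counts (exact Poisson 95% interval 6.20 to 21.0) against 49 to 90 counts in the others. For *Cartpt* the log2 fold change was 0.37 ± 0.411 (95% interval -0.55 to 1.30, adjusted p = 0.969), and 0.06 ± 0.176 without WT replicate 4.

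**Figure D3:**
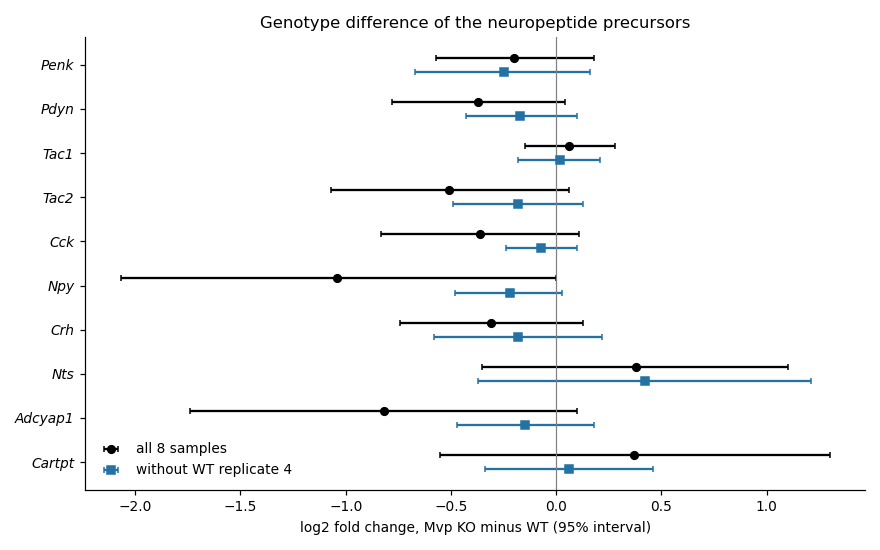
Log2 fold change of each precursor, Mvp KO minus WT, with its 95% interval from edgeR's quasi-likelihood fit. Black circles are the fit of all 8 samples and blue squares the fit without WT replicate 4. For *Npy* the value is -1.04 in the first and -0.22 in the second, and for *Adcyap1* -0.82 and -0.15, whereas for *Penk*, *Tac1* and *Nts* the 2 values lie close together.

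The spread between samples of a genotype was larger for most precursors than for genes of like abundance. The biological coefficient of variation, the spread beyond counting error, was 43.9% for *Npy*, where the median of the 500 genes nearest in mean level was 10.6%. It was 39.9% for *Cartpt* (nearest genes 23.6%), 39.4% for *Adcyap1* (10.4%), 25.8% for *Tac2* (16.5%) and 21.1% for *Cck* (11.1%). *Tac1*, at 11.8% against 13.4%, was the 1 precursor below its neighbors, and 9 of the 10 lay above them. Without WT replicate 4 the coefficient was 11.3% for *Npy* (nearest genes 8.19%), 13.5% for *Adcyap1* (8.13%), 8.21% for *Cck* (8.08%) and 14.8% for *Cartpt* (18.3%). In that fit 8 of the 10 still lay above their neighbors. *Penk* kept a coefficient of 16.9% against 8.61%, and *Nts* 28.8% against 21.4%.

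WT replicate 4 was the sample farthest from the others for most precursors. It was at least 2-fold above the median of the other 7 samples for 3 of 10 (*Npy*, *Adcyap1* and *Tac2*, by 2.16, 1.85 and 1.09 on the log2 scale), where 3.96% of all genes were. It was at least 2-fold below for 1 of 10 (*Cartpt*, at -2.23), where 5.19% of all genes were. *Cck*, at 0.98, lay just inside the limit. WT replicate 4 was the highest of the 8 samples for 6 of 10, against 29.2% of all genes, and the lowest for 2 of 10 (*Tac1* and *Cartpt*), against 32.5%. Of the other 7 samples, only Mvp KO replicate 1 reached the 2-fold limit for a precursor, with *Nts* at 1.05.

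**Figure D4:**
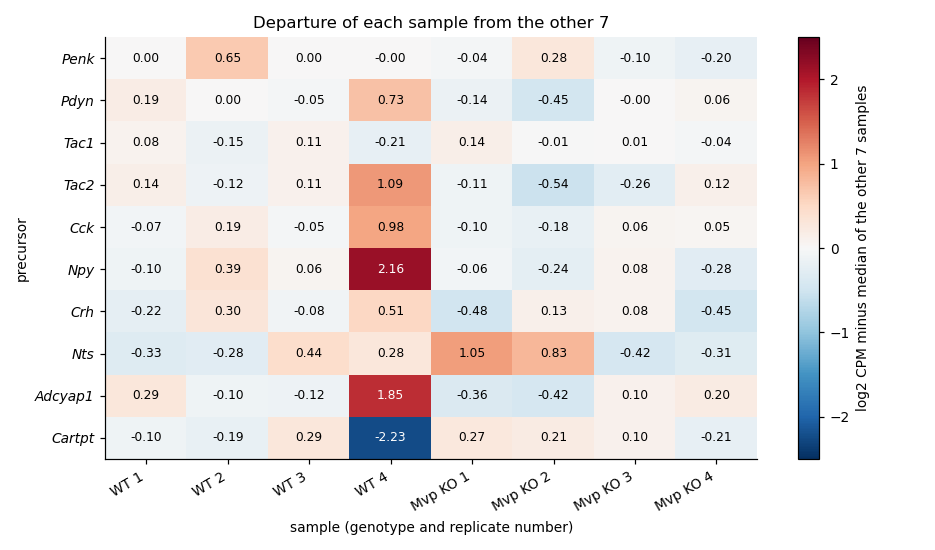
Log2 CPM of each precursor in each sample minus the median of the other 7 samples, written in each cell and shown as color from blue (lower) to red (higher). The column of WT replicate 4 runs from -2.23 for *Cartpt* to 2.16 for *Npy*, and the other columns stay between -0.54 and 1.05.

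The sequence before the start of the gene was compared for the precursors that lay farthest out in this sample in either direction. RefSeq windows from 250 bases before to 50 bases after a gene start on GRCm38.p6 were matched for 8 of the 10 precursors, all except *Penk* and *Crh*. Searched were the cAMP response element TGACGTCA, its shorter form TGACG (which the full element holds on both strands), the AP-1 element TGANTCA and the TATA box TATAAA, all on both strands. TGACG was found for 5 of the 8 (*Tac1*, *Cck*, *Nts*, *Adcyap1* and *Cartpt*), and is present in 20.8% of all 32851 windows. Precursors are counted per gene and the shares per window, and *Pdyn* and *Adcyap1* had 2 windows each. The full element TGACGTCA was found for 1 of the 8, *Cartpt*, at position -112 from the start, and is present in 1.79% of all windows. TGANTCA was found for *Nts* alone (7.81% of all windows) and TATAAA for *Adcyap1* alone, in the second of its 2 windows (13.6%). The windows of *Npy*, *Pdyn* and *Tac2* held none of these letters. The 250 bases before the start follow for the 2 precursors farthest above and the 1 farthest below in WT replicate 4, with motif letters in capitals.
*Npy* (chr6:49822460-49822709, plus strand): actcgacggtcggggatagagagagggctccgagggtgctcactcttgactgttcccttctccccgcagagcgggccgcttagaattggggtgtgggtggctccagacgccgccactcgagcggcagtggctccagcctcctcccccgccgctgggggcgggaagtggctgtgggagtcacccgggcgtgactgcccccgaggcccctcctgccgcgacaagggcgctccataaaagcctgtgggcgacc
*Adcyap1*, first window (chr17:93198767-93199016, plus strand): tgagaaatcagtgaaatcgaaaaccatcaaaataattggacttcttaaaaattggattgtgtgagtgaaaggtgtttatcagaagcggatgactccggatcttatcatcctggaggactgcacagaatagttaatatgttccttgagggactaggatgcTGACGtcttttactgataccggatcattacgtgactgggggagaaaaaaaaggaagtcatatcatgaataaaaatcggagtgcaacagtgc
*Cartpt* (chr13:99900684-99900933, minus strand): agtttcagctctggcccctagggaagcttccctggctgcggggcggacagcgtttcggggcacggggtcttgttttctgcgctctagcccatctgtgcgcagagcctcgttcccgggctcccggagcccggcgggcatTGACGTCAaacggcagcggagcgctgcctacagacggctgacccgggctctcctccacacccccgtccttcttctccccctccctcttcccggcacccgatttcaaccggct

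Genes whose pattern over the 8 samples was most like that of *Npy* and *Adcyap1*, which were among the 3 most variable precursors, were found by the mean absolute difference in deviations of log2 CPM. For *Npy* this was *Strip2*, at 0.109 on the log2 scale, with 185 CPM in WT replicate 4 and 34.4 to 42.2 CPM elsewhere. For *Adcyap1* it was *Scg2*, at 0.0557, with 864 CPM there and 190 to 265 CPM elsewhere. These likenesses rest on 1 sample.

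The rest of the peptide system was read from lists drawn up by function. Between the genotypes, edgeR called 0 genes in either direction in each list, with all 8 samples and without WT replicate 4. At an unadjusted p under 0.05 with all 8 samples, 0.863% of all genes tested were lower in Mvp KO and 0.698% were higher. These shares were not computed for the fit without WT replicate 4, so genes still at that level there have no background beside them. Of the 20 other precursor genes, 12 were tested, with a median log2 fold change of -0.06, and 2 (*Sst* and *Pnoc*, the somatostatin and nociceptin precursor genes) were lower and 0 higher at an unadjusted p under 0.05. Their fitted values ran from -0.62 for *Nucb2*, the nesfatin precursor gene, to 0.38 for *Trh*, which encodes thyrotropin-releasing hormone. Without WT replicate 4, *Nucb2* was at 0.07, *Trh* at 0.18, *Sst* at -0.26 against -0.52 and *Pnoc* at -0.23 against -0.41, and 1 (*Sst*) was still lower at that level. Of the 11 genes of processing enzymes and their helpers, all tested, 1 (*Pcsk1n*, the gene of a convertase inhibitor) was lower and 0 higher at that level, with values from -0.27 ± 0.165 for *Pam*, the amidating enzyme of *Npy*, *Cck* and the tachykinins, to 0.11 ± 0.177 for *Qpct*. Without WT replicate 4 *Pam* was at -0.05 ± 0.0737 and *Qpct* at -0.03 ± 0.116. *Pcsk1n* was at -0.22 ± 0.0804 with all samples and at -0.16 ± 0.0687 without that sample, where its unadjusted p was still under 0.05. The convertase genes *Pcsk1* and *Pcsk2* were at -0.07 ± 0.110 and -0.10 ± 0.0890, and the carboxypeptidase gene *Cpe* was at -0.17 ± 0.0899. *Pcsk2* and *Cpe* were at -0.03 ± 0.0677 and -0.08 ± 0.0596 without WT replicate 4. Of the 10 dense-core vesicle genes, 0 passed an unadjusted p under 0.05, with values from -0.81 ± 0.419 for *Scg2* to 0.13 ± 0.150 for *Cadps2*. In the fit without WT replicate 4, *Scg2* was at -0.09 ± 0.115 and *Cadps2* at -0.01 ± 0.0746, and the median of this list was 0.00 against -0.17. Of the 18 receptor and binding protein genes tested, 1 (*Crhbp*) was lower and 0 higher at an unadjusted p under 0.05, with a median of -0.06 (-0.03 without WT replicate 4). *Crhbp* was still lower at that level without WT replicate 4. Of the 11 genes of peptidases, 1 (*Ece1*, the gene of an endothelin-converting enzyme) was lower and 0 higher at that level, with values from -0.49 ± 0.258 for *Ace* to 0.10 ± 0.264 for *Dpp4*. *Sst*, *Pnoc*, *Pcsk1n* and *Ece1* were named after their values had been seen. Leaving out WT replicate 4 gave -0.16 ± 0.152 for *Ace*, 0.18 ± 0.289 for *Dpp4* and -0.20 ± 0.0826 for *Ece1* against -0.48 ± 0.205. In that fit *Ece1* was still lower at an unadjusted p under 0.05.

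In WT replicate 4 the lists differed in their medians and counts, which were not tested against each other. Of all genes tested, 3.96% were at least 2-fold higher and 5.19% at least 2-fold lower in this sample. Its departure from the other 7 samples had a median of 0.62 on the log2 scale over the 10 precursors, and the summed level of the 10 was 1071 CPM there against 437 to 552 CPM in the other 7 samples. For the dense-core vesicle genes the median was 0.56, with 4 of 10 (*Chga*, *Chgb*, *Scg2* and *Vgf*) at least 2-fold higher and a sum of 4818 CPM against 2567 to 3026 CPM elsewhere. For the processing enzymes the median was 0.12, with 0 of 11 beyond 2-fold in either direction. For the receptors it was also 0.12, with 3 of 18 (*Tacr1*, *Crhr2* and *Crhbp*) at least 2-fold higher and 4 of 18 (*Oprk1*, *Npy1r*, *Npy2r* and *Crhr1*) at least 2-fold lower. For the other precursors it was -0.21, with 1 of 12 (*Nucb2*) at least 2-fold higher and 4 of 12 (*Cort*, *Grp*, *Trh* and *Npff*) at least 2-fold lower. These members are named because of their values.

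The immediate early genes, which neurons induce when active, were mostly highest in this sample. Single markers of neuron types lay on both sides, while the summed levels of the excitatory and GABAergic lists were also highest there. WT replicate 4 had the highest level of the 8 samples for 9 of the 10 immediate early genes (29.2% of all genes) and was at least 2-fold higher for 6, and these genes summed to 2481 CPM there against 582 to 1525 CPM elsewhere. The most extreme was *Npas4*, an activity-induced transcription factor gene, at 465 CPM against 23.0 to 115 CPM, and it had the lowest fitted fold change of that list (-1.02 ± 0.898 on the log2 scale), while *Ier2* had the highest (0.65 ± 0.458). Without WT replicate 4 the direction of *Npas4* turned, to 0.97 ± 0.433, *Ier2* was at 0.95 ± 0.512, and the median of the list was 0.58 against 0.06. Of 9 markers of GABAergic interneurons, 4 were highest and 3 lowest in WT replicate 4, where 29.2% of all genes were highest and 32.5% lowest. *Gad2*, which makes GABA and had the lowest fitted fold change of these markers, was at 545 CPM against 154 to 205 CPM, and *Lamp5*, with the highest, was at 74.0 CPM against 152 to 293 CPM. Their log2 fold changes were -0.60 and 0.18, and -0.06 and -0.08 without that sample. Of 8 markers of excitatory neurons, 4 were highest and 2 lowest, and *Cux2* was at 132 CPM, which was 1.17 above the median of the other 7 on the log2 scale. The excitatory markers summed to 3498 CPM in WT replicate 4 against 1926 to 2330 CPM elsewhere. For the GABAergic markers the sum was 1635 CPM there against 897 to 1159 CPM. Of 5 oligodendrocyte markers, 0 were highest and 4 were lowest, with a sum of 1202 CPM against 1386 to 5208 CPM. The part of these genes in the precursor levels was not tested.

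**Figure D5:**
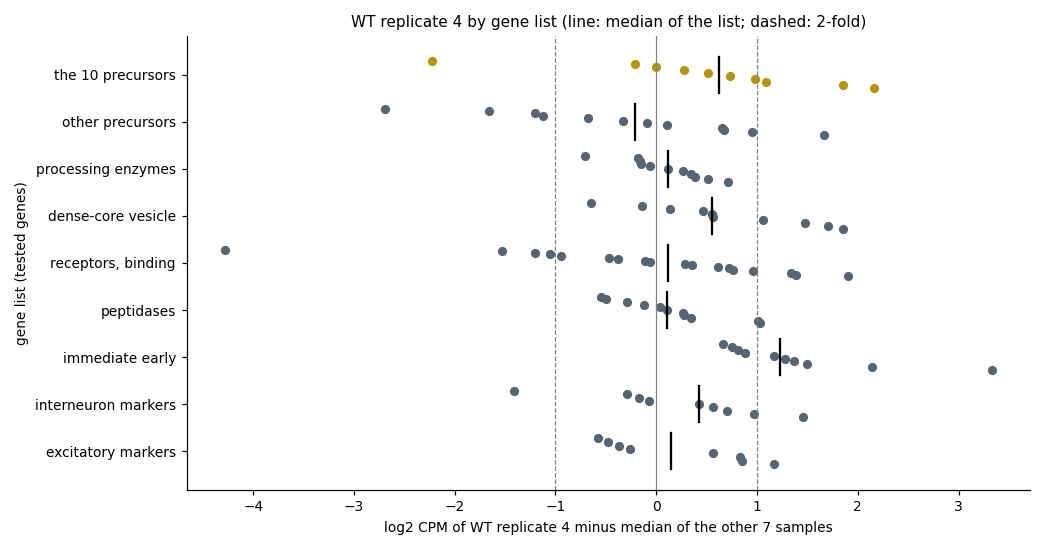
Departure of WT replicate 4 from the median of the other 7 samples, in log2 CPM, for each tested gene of 9 lists. Each point is 1 gene, the vertical line is the median of the list and the dashed lines mark 2-fold. The medians are 0.62 for the 10 precursors, 0.56 for the dense-core vesicle genes, 0.12 for the processing enzymes and 1.23 for the immediate early genes.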

How the data were processed

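Single-end RNA sequencing reads of 8 samples (4 WT, 4 Mvp KO) were processed by the authors with cutadapt 1.10, Bowtie2 2.2.8 (removal of ribosomal and spike-in reads), STAR 2.5.3a on mm10 and HTSeq 0.6.1p1, and the raw counts per gene were deposited in 1 table without normalization. The mode and strand setting of the counting are not given in the sources used here, so overlapping genes may share or lose reads. Of the 53379 identifiers, 53274 were found in GENCODE vM21 of GRCm38, which gave symbols, coordinates and exon lengths. No entry lacked a gene name.

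Counts were fitted in R 4.3.3 with edgeR 4.0.16 (filterByExpr with a minimum count of 10 and a minimum total of 15, TMM, robust quasi-likelihood, genotype as the single term). P-values were adjusted by the Benjamini-Hochberg procedure across the 16914 genes kept, and an adjusted p under 0.05 was called. The SE is the fold change over the square root of F, and 95% intervals use the t quantile of the fit. Departures of a sample used log2 CPM with a prior count of 2. Levels of single genes were compared with each other only as CPM per kb of exon. Sums over gene lists are in CPM and are not scaled to length. Depth was 28456504 to 42854368 counts per sample, so counting error matters mainly for *Nts* and *Cartpt*.

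The 10 precursors and the gene lists were chosen with earlier results of these data known. Named were the 10 precursors, *Mvp*, of each list the genes with the highest and lowest fold change and the genes that process or receive a peptide described beside them, and for the 3 precursors with the largest SD the gene of at least 1 CPM and 0.8 to 1.25 times that SD with the most like pattern, of which 1 is not reported here. A gene named for its values beyond these is marked so where it appears. Same-numbered samples were not treated as pairs in the main fit (the correlations of their deviations are given with the alternatives). Samples of a genotype differed by a chi-square per gene of 7.04 to 97.4, so none was a repeated library.

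The alternatives were DESeq2 size factors in edgeR, the Wald test of DESeq2 1.42.0, limma 3.58.1 voom with sample quality weights, other filters, the replicate number as a block, each sample left out in turn and, for levels, the longest transcript as length. The fits were checked on simulated counts. Windows before gene starts are RefSeq sequence. SciPy 1.17.1 gave the permutation tests and matplotlib 3.10.9 the figures, under Python 3.11.15.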

Additional observations from a re-analysis of the deposited data

Results flagged for a closer look

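In 7 of the 24 sets of 4 samples examined (10 precursors, *Mvp* and the total count, in each genotype), the highest or the lowest sample stood apart by more than Dixon's 95% critical value for 4 samples. At the nominal level of that test about 1 in 20 such sets would do so by chance, or 1.20 of 24. The sets all come from the same 8 samples, and the share of all genes beyond this limit was not computed. WT replicate 4 was the highest of the 8 samples for 29.2% of all genes and the lowest for 32.5%. Of the precursors, 5 were among them, all in WT and 0 in Mvp KO.

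WT replicate 4 accounted for 4 of these 5. Its *Cck* level was 584 CPM, where WT replicates 1 to 3 lay between 292 and 338 CPM. It also had 184 CPM of *Npy* against 40.0 to 54.0 CPM, 176 CPM of *Adcyap1* against 48.0 to 59.4 CPM and 17.1 CPM of *Tac2* against 7.97 to 8.85 CPM. The fifth was *Penk*, with 44.1 CPM in WT replicate 2 against 28.2 CPM in each of the other 3 WT samples. The remaining 2 were *Mvp* in Mvp KO replicate 3, with 2.13 CPM against 1.44 to 1.51 CPM, and the total count of WT replicate 2, with 42854368 counts against 33408202 to 34760784.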

How the results depend on the processing

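The count of precursors called was 0 under all 14 alternatives, with a lowest adjusted p of 0.846. Of the 140 fold changes of single precursors under the alternatives, 138 kept their sign and stayed on the same side of the threshold, and 2 changed sign, both under limma voom with sample quality weights, *Tac1* at -0.014 and *Nts* at -0.047 on the log2 scale. That fit also gave *Npy* -0.22 and *Adcyap1* -0.08 against -1.04 and -0.82. Leaving out 1 sample at a time moved *Npy* between -1.27 and -0.22, *Adcyap1* between -1.02 and -0.15 and *Penk* between -0.31 and -0.0061. The cause was not tested beyond the fit without WT replicate 4.

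Of all genes, DESeq2's Wald test called 2 and the replicate block 0, against 1, and leaving out 1 sample gave between 0 and 1. The log2 fold change of *Mvp* was -2.07 with the block (adjusted p = 0.0850) and between -2.22 and -1.99 with 1 sample left out. Same-numbered samples had correlations of deviations of 0.0548, 0.287, -0.00671 and 0.0507, with the highest for replicate 2. Whether same-numbered samples share a batch or a dissection was not tested. With the block, 0 precursors were called and 2 (*Pdyn* and *Tac2*) had an unadjusted p under 0.05, against 1. The share of all genes at that level was not computed with the block, so this change cannot be judged. The order of the levels kept all 9 neighboring pairs under the other scaling and length, and 8 without WT replicate 2 or Mvp KO replicate 2. Between 8 and 9 precursors varied more than genes of like level in every alternative that gave a coefficient of variation.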

Other observations

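Among the other precursor genes, *Gal*, which encodes galanin, was too low in most samples to be tested. It had 183 counts (5.81 CPM) in WT replicate 4 and between 0 and 17 counts (0 to 0.424 CPM) in the other 7 samples, and it is named because of these values.

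The 2 somatostatin-family precursors stood on opposite sides in WT replicate 4. *Sst* was at 310 CPM there and between 124 and 191 CPM elsewhere, and *Cort*, which encodes cortistatin, was at 1.27 CPM there and between 3.58 and 4.85 CPM elsewhere. *Grp*, the precursor gene of gastrin-releasing peptide, was at 2.25 CPM against 9.40 to 19.8 CPM, and *Vip*, a marker peptide of interneurons, at 63.3 CPM against 70.4 to 90.2 CPM. *Nucb2* was at 56.8 CPM against 13.9 to 18.6 CPM. These genes were also named after their values had been seen. Like *Tac1* and *Cartpt*, the genes *Cort*, *Grp* and *Vip* were lowest in this sample, whereas *Sst* and *Nucb2* were highest.

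*Adora2a*, a marker of striatal projection neurons, had the lowest fitted fold change of that list (-1.48 on the log2 scale, and 0.06 without WT replicate 4) and was at 18.4 CPM in WT replicate 4 and between 1.80 and 2.64 CPM elsewhere. The 10 striatal markers summed to 188 CPM there and to between 102 and 124 CPM elsewhere, with *Six3* and *Sh3rf2* at or under 0.424 and 0.399 CPM in every sample.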
